A study of Mus musculus with 40 samples.

Results

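Adipocytes isolated from mouse inguinal white fat were compared with tibialis muscle, 2 tissues that both store fuel and answer to insulin. The comparison was defined by the sample titles and uses 5 of the 40 arrays of a survey of mouse cell lines, primary cells and tissues: 3 arrays of tissue adipocytes and 2 of tibialis muscle. The adipocytes were freed with collagenase and washed in PBS, and lipid was removed after lysis. The muscle was taken from the tibialis mechanically, with no digestion, so it holds every cell type of the organ. Strain, genotype, sex and age of the mice, and whether the samples are separate animals, are unknown here. Each p-value thus rests on the spread among arrays within all 14 groups of the survey, which for the compared groups may be technical in part or in whole. The group of preadipocyte lines holds different lines, so differences between lines also enter this spread. A matching contrast in culture, with no shared sample, set 3 arrays of 3T3-F442A adipocytes against 2 arrays of C2C12 myotubes. 3T3-F442A is a mouse preadipocyte line, kept for 7 days after confluence in medium with 10% FCS and rosiglitazone, an activator of the fat cell regulator PPAR gamma. C2C12 is a mouse myoblast line, kept for 7 days after confluence in medium with 4% HS, where its cells fuse into multinucleated myotubes.

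Fat cells keep energy as a lipid droplet, release it through lipases and secrete hormones such as resistin. Fast skeletal muscle, of which the tibialis is a standard example, breaks down its own glycogen by glycolysis and contracts when calcium leaves the sarcoplasmic reticulum. Its fibres therefore carry fast isoforms of myosin light chain, of the calcium pump and of glycolytic enzymes. Many of these genes are read by the MyoD family, which binds E boxes. Immediate early genes, such as the mRNA decay factors of the Zfp36 family, are switched on within minutes by serum, stress or cell isolation.

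Each array is a nylon filter of 5760 cDNA spots, and each value given here is a normalized spot intensity in kU (1 kU is 1000 intensity units), not a transcript number, so levels are compared only within a spot. Differences are log2 of intensity plus an offset of 36370, tissue adipocytes minus tibialis muscle, ± SE from a limma fit of all 14 groups of the survey, and this scale understates the change of dim spots. The deposited arrays of adipocytes had lower medians, of 52.2, 57.1 and 62.7 kU, against 94.8 and 131 kU in tibialis muscle. Their lowest spots were also lower, at 21.1, 18.4 and 18.0 kU, against 45.8 and 57.0 kU in muscle. The 99th percentile was 16.9, 17.5 and 12.6 times the median in adipocytes and 8.97 and 6.30 times in muscle. The arrays thus differed in shape as well as in level. Quantile normalization then made the arrays alike. After it, array profiles correlated at 0.934 to 0.966 among adipocytes and 0.949 between the muscle samples, against 0.909 to 0.937 between the groups. A called spot had a Benjamini-Hochberg adjusted p under 0.05 over all spots.

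The array separated the tissues in few spots. Limma called 22 spots (0.382% of 5760), 6 higher in adipocytes (0.104%) and 16 lower (0.278%), and 235 had an unadjusted p under 0.05. In each of the 22 the samples of the groups did not overlap, which was also so for 26.9% of all spots (13.8% higher in adipocytes and 13.1% lower). Of the called spots 19 carry 1 gene, 4 higher and 15 lower in adipocytes, and these are all described here. The other 3 are unnamed. The median difference over all spots was 0.01, a value largely set by quantile normalization, which makes the arrays alike. Of the spots, 10 lay below -1 against 3 above 1. Atp2a1, Myl1, Pygm, Cdca7l, Eno3 and Pfkm were called in every alternative fit that tested them, and each of the other 13 genes lost its call under at least 1 other scaling or fit, with no change of sign. The size of a difference depends on how background is handled: Zfp36 was 0.59 with 4 times the offset and 4.46 with background subtraction, and Cdca7l -1.13 and -4.91.

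**Figure D1:**
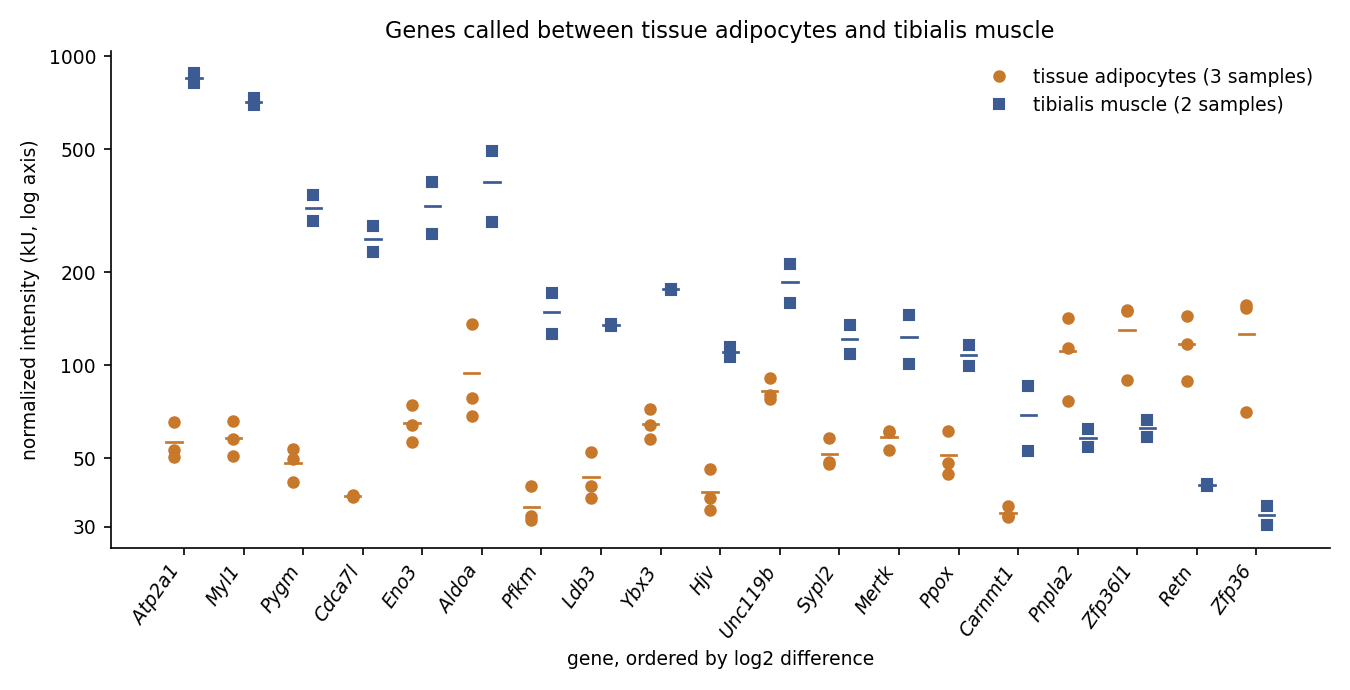
Normalized intensity (kU, log axis) of the 19 called genes in each sample, ordered by log2 difference. Circles are the 3 tissue adipocyte samples, squares the 2 tibialis muscle samples and short lines the group means. Atp2a1 and Myl1, at the left, sit at 50.5 to 65.9 kU in adipocytes and at 694 to 881 kU in muscle, and the 4 genes at the right are higher in all 3 adipocyte samples.

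Genes of the contractile and calcium apparatus were lower in adipocytes. Atp2a1 encodes SERCA1, the pump that returns calcium to the reticulum of fast fibres. It had 53.2, 50.5 and 65.4 kU in adipocytes, against 881 and 819 kU in tibialis muscle. Myl1, the essential light chain of fast myosin, had 57.8, 65.9 and 51.0 kU in adipocytes, against 734 and 694 kU in muscle. The muscle samples were alike and far above every adipocyte sample in both genes. The log2 difference was -3.26 ± 0.20 for Atp2a1 (limma adjusted p = 1.40e-13) and -2.99 ± 0.21 for Myl1 (limma adjusted p = 3.15e-12). Ldb3, a PDZ and LIM domain protein of the Z-disc, was dimmer, with 52.3, 40.6 and 37.3 kU in adipocytes and 137 and 134 kU in muscle, a difference of -1.11 ± 0.19 (limma adjusted p = 0.00108). Sypl2, or mitsugumin 29, a membrane protein of the triad where calcium release is triggered, had 58.4, 48.7 and 47.8 kU in adipocytes, against 109 and 135 kU in muscle (-0.84 ± 0.15, limma adjusted p = 0.00251). Its call was lost without tibialis replicate 2, where it was -0.73.

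Genes of glycogen breakdown and glycolysis, most of them muscle isoforms, were the other large block lower in adipocytes. Pygm, the muscle glycogen phosphorylase that cuts glucose units from glycogen, had 49.8, 41.8 and 53.5 kU in adipocytes and 293 and 356 kU in muscle. Its difference of -2.09 ± 0.12 had the smallest adjusted p of all spots (limma, 1.24e-14). Pfkm, the muscle phosphofructokinase at the committed step of glycolysis, had 40.7, 31.6 and 32.4 kU in adipocytes, against 172 and 126 kU in muscle (-1.37 ± 0.14, limma adjusted p = 6.70e-08). The adipocyte values of Pfkm were close to the offset. Eno3, the muscle enolase, had 56.7, 74.2 and 64.1 kU in adipocytes and 266 and 392 kU in muscle (-1.83 ± 0.21, limma adjusted p = 4.31e-07). In each of these 3 genes both muscle samples lay well above all adipocyte samples. Aldoa, aldolase A, is made in many cell types besides muscle. It had 68.4, 136 and 78.3 kU in adipocytes and 495 and 290.4 kU in muscle. Its difference of -1.71 ± 0.34 (limma adjusted p = 0.00605) was uneven within both groups, and it was not called without tibialis replicate 1 (-1.36) or in a fit of the compared groups alone.

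Printed are the promoters of the 3 genes with the smallest p-values and of Zfp36, which had the smallest among genes higher in adipocytes. Cdca7l, Pfkm and Eno3 had smaller p-values than Zfp36, and their promoters held neither CAGCTG nor a CArG box. The motif marked in each was chosen for display. Left unmarked are CCAAT in Atp2a1 and Myl1, TATAAA in Myl1 and CANNTG in Zfp36. The printed promoters are RefSeq sequences of build GRCm38.p6, 250 bases ending just before the start site, read 5' to 3' on the gene's strand. Capitals mark the E box CAGCTG in Atp2a1 (chr7:126463074-126463323, minus strand), Myl1 (chr1:66945057-66945306, minus strand) and Pygm (chr19:6384158-6384407, plus strand). In Zfp36 (chr7:28379229-28379478, minus strand) capitals mark a CArG box, the element known to bind serum response factor.
Atp2a1: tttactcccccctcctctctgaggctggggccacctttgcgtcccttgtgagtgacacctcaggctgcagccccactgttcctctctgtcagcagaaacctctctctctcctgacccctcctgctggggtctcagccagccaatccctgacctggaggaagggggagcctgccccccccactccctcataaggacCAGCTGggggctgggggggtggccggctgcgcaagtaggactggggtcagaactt
Myl1: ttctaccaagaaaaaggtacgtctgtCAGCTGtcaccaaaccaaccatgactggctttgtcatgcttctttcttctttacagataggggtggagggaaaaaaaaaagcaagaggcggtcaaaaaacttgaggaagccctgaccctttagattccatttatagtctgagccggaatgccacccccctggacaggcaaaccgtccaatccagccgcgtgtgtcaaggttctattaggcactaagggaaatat
Pygm: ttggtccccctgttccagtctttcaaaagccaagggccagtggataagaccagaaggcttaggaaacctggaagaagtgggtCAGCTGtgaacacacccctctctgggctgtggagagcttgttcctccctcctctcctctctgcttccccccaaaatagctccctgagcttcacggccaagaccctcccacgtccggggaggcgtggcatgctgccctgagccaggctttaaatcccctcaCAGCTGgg
Zfp36: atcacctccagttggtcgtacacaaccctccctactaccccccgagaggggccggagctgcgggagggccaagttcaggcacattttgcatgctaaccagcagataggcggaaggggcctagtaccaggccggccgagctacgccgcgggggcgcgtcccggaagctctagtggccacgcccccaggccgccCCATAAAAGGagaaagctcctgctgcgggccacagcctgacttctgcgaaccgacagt
The E box begins 55 bases before the start in Atp2a1, 224 in Myl1, and 168 and 8 in Pygm, and the CArG box of Zfp36 begins 58 bases before it. The table held 20 promoters for 14 of the 15 genes lower in adipocytes, and 5 of them (25%) held CAGCTG on either strand, those of Pygm, Atp2a1, Myl1, Sypl2 and Carnmt1. Among all 3403 promoters of genes on the array 401 did (11.8%), and among the 4 promoters of genes higher in adipocytes 0 did. CAGCTG also counts as the wider E box CANNTG, found in 75% of promoters of the lower genes, 75% of those of the higher genes and 58.5% of all. A CArG box was in both Ldb3 promoters and that of Zfp36, against 1.44% of all promoters. The MEF2 site was in 0 of the 20 and 0 of the 4 promoters (1.59% of all), the C/EBP motif TTGCNNAA in 1, that of Pfkm (7.41% of all), and the PPAR direct repeat in 0 promoters of any set. TATAAA was in 2 of the 20 and 1 of the 4 promoters (7.43% of all), and CCAAT in 8 and 1 (34.6% of all). These matches describe letters in a short window and were not tested.

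Other genes lower in adipocytes had roles outside contraction and glycolysis. Cdca7l, a nuclear protein known as a partner of Myc, had 38.0, 37.4 and 37.7 kU in adipocytes, all close to the offset. In muscle it had 282 and 232 kU (-1.98 ± 0.14, limma adjusted p = 3.17e-12). Ybx3, a cold shock domain protein that binds nucleic acids, had 57.8, 72.1 and 64.3 kU in adipocytes and 177 and 176 kU in muscle (-1.07 ± 0.19, limma adjusted p = 0.00118). Hjv, or hemojuvelin, is a BMP co-receptor of iron regulation made in skeletal muscle and liver. It had 46.1, 33.9 and 37.1 kU in adipocytes and 106 and 115 kU in muscle (-0.96 ± 0.20, limma adjusted p = 0.00937). Carnmt1, which methylates the muscle dipeptide carnosine to anserine, was dim throughout, with 32.7, 32.3 and 35.1 kU in adipocytes and 52.9 and 85.7 kU in muscle (-0.58 ± 0.13, limma adjusted p = 0.0212). Unc119b, a carrier of lipid-modified proteins, had 77.6, 90.8 and 80.2 kU in adipocytes and 212 and 159 kU in muscle (-0.89 ± 0.19, limma adjusted p = 0.0186). Over the 5 fits that left out a sample, Hjv ran from -1.03 to -0.92 and was called only without adipocyte replicate 1. Carnmt1 ran from -0.81 to -0.36 and was called only without tibialis replicate 1. Unc119b ran from -1.06 to -0.72 and was not called without adipocyte replicate 1, adipocyte replicate 3 or tibialis replicate 1.

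Mertk, a receptor tyrosine kinase of phagocytosis, and Ppox, an enzyme of haem synthesis, were called in spots that adjoin Atp2a1 and Myl1. Mertk had 53.3, 60.9 and 61.5 kU in adipocytes and 101 and 146 kU in muscle (-0.74 ± 0.16, limma adjusted p = 0.0199). Ppox had 61.5, 48.3 and 44.5 kU in adipocytes and 99.7 and 116 kU in muscle (-0.72 ± 0.13, limma adjusted p = 0.00296). In the order of the deposited table Mertk lies next to Atp2a1 and Ppox next to Myl1, and the table behaves as a grid of 12 spots a row. Across all spots, differences of spots 1 place apart correlated at 0.342 and 12 places apart at 0.339, against -0.0019 at 100 places. The 4 spots touching Myl1 along or across rows ran from -0.72 to -0.54 and the 4 touching Atp2a1 from -0.74 to -0.16. At 2 places the medians were 0.04 and -0.10. A second Ppox spot, elsewhere in the table, averaged 42.6 kU in adipocytes and 41.7 kU in muscle (0.02 ± 0.14, limma adjusted p = 0.999). Hjv adjoins the unnamed called spot of the lower set (-0.86), and these lie 3 and 4 places from Myl1. Mertk was called in 1 of the 5 fits that left out a sample, the one without tibialis replicate 1, with a range of -0.94 to -0.53, and Ppox lost its call without tibialis replicate 2 (-0.64). The part of neighbouring spots in these results was not tested.

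**Figure D2:**
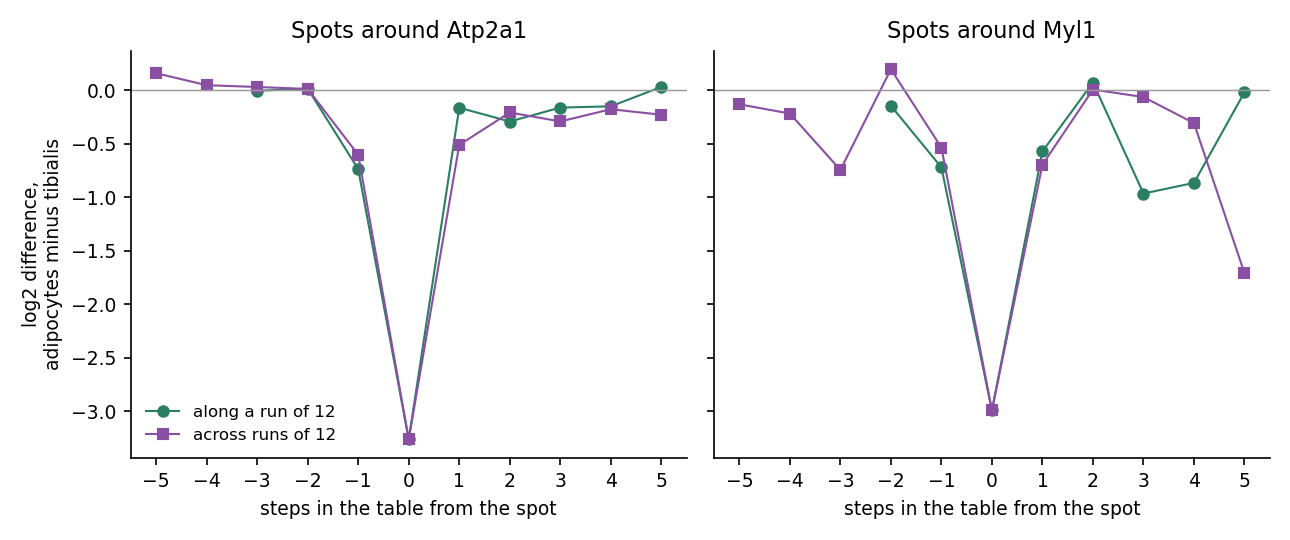
Log2 difference, adipocytes minus tibialis, of spots up to 5 places before and after Atp2a1 (left) and Myl1 (right) in the deposited table, along a row of 12 spots (circles) and across rows (squares). Spots 1 place away lie between -0.74 and -0.16 around Atp2a1 and between -0.72 and -0.54 around Myl1. The low points farther from Myl1 are Hjv with its unnamed neighbour (along the row), and Cd24a and Aldoa (across rows).

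In adipocytes, 2 fat cell genes and 2 mRNA decay genes were higher. Retn encodes resistin, a hormone secreted by mouse fat cells. It had 117, 145 and 89.2 kU in adipocytes, against 41.4 and 40.7 kU in muscle, where both samples lay close to the offset (0.97 ± 0.17, limma adjusted p = 0.00154). Pnpla2, adipose triglyceride lipase, which starts the breakdown of stored fat, had 76.6, 142 and 114 kU in adipocytes and 62.2 and 54.3 kU in muscle (0.62 ± 0.13, limma adjusted p = 0.0120). Zfp36, or tristetraprolin, speeds the decay of AU-rich mRNA. Its values were 70.5, 153 and 157 kU in adipocytes and 30.4 and 35.1 kU in muscle (1.19 ± 0.17, limma adjusted p = 3.76e-05). Both muscle values of Zfp36 lay below the offset. Zfp36l1, its relative that likewise binds AU-rich mRNA, had 89.6, 149.98 and 151 kU in adipocytes and 66.4 and 58.7 kU in muscle (0.73 ± 0.17, limma adjusted p = 0.0413). Adipocyte replicate 1 was the lowest adipocyte sample for Pnpla2, Zfp36 and Zfp36l1, and replicate 3 for Retn. Retn and Zfp36 were called whichever sample was left out, while Pnpla2 (0.46 to 0.79) and Zfp36l1 (0.63 to 0.92) kept theirs only without adipocyte replicate 1. None of the 4 was called when only these 2 groups were fitted, with 3 residual degrees of freedom. Over all settings of the processing Pnpla2 ran from 0.05 to 1.45 and Zfp36l1 from 0.18 to 1.57. The unnamed higher spots differed by 1.26 and 0.69.

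The same adipocyte arrays were set against other tissues, so these comparisons share samples with the one above. Against 3 arrays of adherent stroma-vascular cells of the same fat, plated for a day, limma called 0.625% of spots, 0.174% higher in adipocytes and 0.451% lower. Retn was 0.89 ± 0.15 higher in adipocytes (limma adjusted p = 0.00119), Zfp36 0.79 ± 0.15 (0.00416) and Pnpla2 0.63 ± 0.11 (0.00245), while Zfp36l1 had 0.44 ± 0.15 (0.279). Against 2 arrays of whole liver, with 3.77% of spots called (1.86% higher and 1.91% lower in adipocytes), Retn was 1.13 ± 0.17 higher (limma adjusted p = 1.14e-04), Zfp36 0.88 ± 0.17 (0.00186) and Pnpla2 0.81 ± 0.13 (2.17e-04). Zfp36l1 had 0.52 ± 0.17 (0.0789). All of these values rest on the same 3 adipocyte arrays. On the muscle side, tibialis minus liver (1.88% of spots called, 0.625% higher in muscle and 1.25% lower) was 3.33 ± 0.22 for Atp2a1, 3.40 ± 0.23 for Myl1 and 1.88 ± 0.13 for Pygm (each limma adjusted p = 1.20e-12). Cdca7l had 1.84 ± 0.15 (2.56e-10), Pfkm 1.08 ± 0.16 (3.19e-05) and Aldoa 2.38 ± 0.37 (9.83e-05), all called. Mertk, which adjoins Atp2a1 in the deposited order, had 0.90 ± 0.18 (limma adjusted p = 0.00250) and was called, as were Eno3, Ldb3, Ybx3, Unc119b and Sypl2. Hjv, made in both muscle and liver, had 0.71 ± 0.22 (limma adjusted p = 0.0790), Ppox 0.48 ± 0.15 (0.0825) and Carnmt1 0.22 ± 0.14 (0.484), none of them called.

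The lists of muscle genes held 7 of the called genes. Of measured members, 40% were called in the glycogen and glycolysis list, 20% in the sarcomere list and 10% in the calcium list. Over all spots the share was 0.382%. The lists were chosen with earlier results of these data known. In the list of glycogen, glycolysis and phosphocreatine genes, 4 of 10 measured members were called, all lower (Pygm, Pfkm, Eno3 and Aldoa), and the median was -0.55. The list also had 2 members above 0, among them Pfkp (0.31 ± 0.14, not called). Ckm, muscle creatine kinase, had 99.7, 177 and 138 kU in adipocytes and 251 and 248 kU in muscle. Its difference of -0.74 ± 0.25 was not called (limma adjusted p = 0.509). The spot of Ckm adjoins a bright unnamed spot, with 530, 917 and 999 kU in adipocytes and 999 kU in both muscle samples. In the sarcomere list 2 of 10 were lower, Myl1 and Ldb3, with a median of -0.29. Alpk3, a muscle kinase, had 66.8, 98.5 and 189 kU in adipocytes and 146 and 261 kU in muscle (-0.67 ± 0.27, limma adjusted p = 0.920), and its groups overlapped. Its spot adjoins the same unnamed spot as Ckm, on the other side. The part of this neighbour in the values of Ckm and Alpk3 was not tested. In the list of calcium handling, excitation and regulators Atp2a1 alone of 10 was called, with a median of -0.12. Hrc, which binds calcium in the reticulum, had 32.3, 27.9 and 45.0 kU in adipocytes and 63.0 and 87.5 kU in muscle (-0.64 ± 0.17, limma adjusted p = 0.108). Casq1, the main calcium store protein of fast fibres, had -0.20 ± 0.14.

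**Figure D3:**
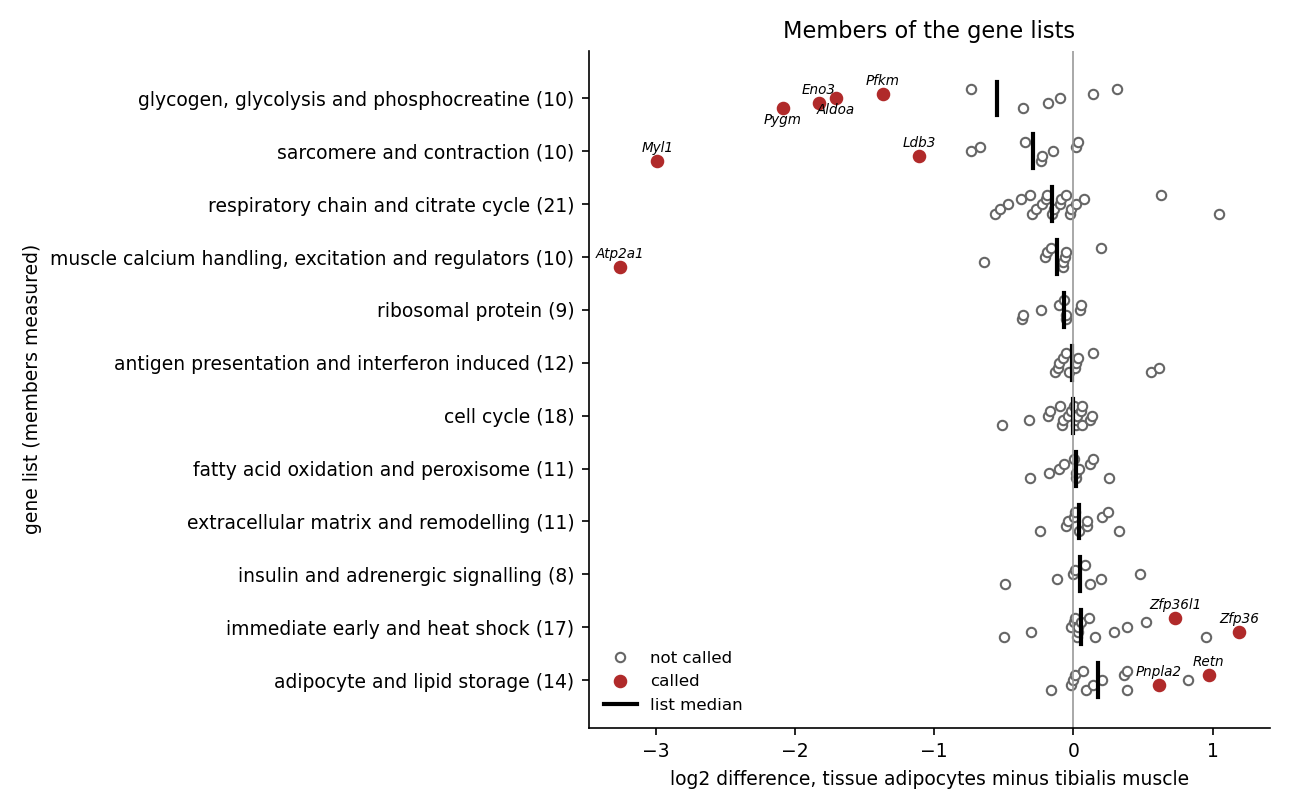
Log2 difference, tissue adipocytes minus tibialis muscle, of each measured member of 12 gene lists, with filled points for called genes and bars for list medians. Medians run from -0.55 for glycogen and glycolysis genes to 0.17 for adipocyte and lipid storage genes, and called members fall in 5 lists.

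Of 14 measured genes of fat cells and lipid storage 2 were called higher, Retn and Pnpla2, 12 had differences above 0, and the median was 0.17. Rbp4, the retinol carrier that fat also secretes, had 71.9, 152 and 143 kU in adipocytes, against 47.4 and 53.7 kU in muscle. It did not pass the test (0.83 ± 0.27, limma adjusted p = 0.444). Elovl6, a fatty acid elongase, had 0.39 ± 0.14 (limma adjusted p = 0.592). Lpl, lipoprotein lipase, works in both fat and muscle. It had 123, 204 and 211 kU in adipocytes and 122 and 129 kU in muscle, and its groups overlapped (0.38 ± 0.19, limma adjusted p = 0.999). Cidec, a lipid droplet protein of white fat, had 62.5, 92.2 and 146 kU in adipocytes and 111 and 112 kU in muscle (-0.16 ± 0.21, limma adjusted p = 0.999), and its spot adjoins Atp2a1. Bscl2, or seipin, of droplet formation, had 55.5, 120.4 and 84.8 kU in adipocytes and 37.6 and 38.8 kU in muscle (0.69 ± 0.18, limma adjusted p = 0.0894); it is in none of the lists and was chosen after its values were seen.

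No oxidative gene was called. Of the 21 respiratory chain and citrate cycle genes measured, 17 were below 0 and the median was -0.15. Cox6a1, the subunit isoform of non-muscle cells in complex IV, went the other way with 71.4, 216 and 112 kU in adipocytes and 39.9 and 41.7 kU in muscle (1.05 ± 0.36, limma adjusted p = 0.512). Atp5pb, of the ATP synthase stalk, had 39.4, 43.9 and 35.1 kU in adipocytes and 44.9 and 118 kU in muscle (-0.56 ± 0.21, limma adjusted p = 0.784), where tibialis replicate 2 alone stood high. Atp5o had -0.47 ± 0.19 (limma adjusted p = 0.920). None of 11 fatty acid oxidation and peroxisome genes was called, with a median of 0.02, and Oxct1, Pex2 and Scp2 had -0.31 ± 0.17, -0.17 ± 0.14 and 0.26 ± 0.27.

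Of 17 immediate early and heat shock genes Zfp36 and Zfp36l1 were called higher, 14 were above 0 and the median was 0.06. Dusp1, a phosphatase that switches off MAP kinases, had 77.0, 84.4 and 109 kU in adipocytes and 47.2 and 55.1 kU in muscle (0.52 ± 0.13, limma adjusted p = 0.0875). Mt1, a metal-binding stress gene, had 111, 194 and 103 kU in adipocytes and 49.9 and 51.3 kU in muscle (0.95 ± 0.32, limma adjusted p = 0.509). Hspb8, a small heat shock protein, had -0.50 ± 0.15 (limma adjusted p = 0.292). The adipocytes were digested with collagenase and the muscle was not, so isolation and cell type cannot be told apart for these genes.

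The remaining lists had no called gene. Of antigen presentation and interferon genes (12 measured, median -0.01), Gbp2 had 54.3, 74.6 and 101 kU in adipocytes and 38.9 and 39.4 kU in muscle (0.56 ± 0.15, limma adjusted p = 0.125). B2m had 0.62 ± 0.48 and Ifngr2 0.14 ± 0.11. Of 18 cell cycle genes (median -0.01), Mad2l1, which touches Atp2a1 in the table, had -0.51 ± 0.16, Mki67 -0.32 ± 0.16 and Mcm4 -0.19 ± 0.13. Of 11 matrix genes (median 0.04), Tnc had -0.24 ± 0.12, Mmp2 0.25 ± 0.15 and Igfbp4 0.33 ± 0.24. Of 9 ribosomal protein genes (median -0.07), Rpl30 had -0.37 ± 0.27, Rpl27a -0.36 ± 0.39 and Rpl15 -0.23 ± 0.30. Of 8 insulin and adrenergic signalling genes (median 0.05), Vamp2, a vesicle fusion protein, had 0.48 ± 0.20, Prkaa1, a catalytic subunit of AMP kinase, -0.49 ± 0.36 and Prkag1 -0.11 ± 0.12.

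Both labels were set beside marker genes, of which few were measured for fat. Of 7 measured markers of skeletal muscle fibres 5 were called lower in adipocytes: Atp2a1, Myl1, Pygm, Eno3 and Ldb3. These 5 are among the called genes described above, so they are no separate check of the label. Ckm and Casq1 were not called. The summed level of the 7 markers was 406 to 488 kU in adipocytes, against 2617 to 2686 kU in muscle. Bright spots weigh most in such sums: Atp2a1 and Myl1 averaged 850 and 714 kU in muscle. Of 4 measured adipocyte markers 2 were called higher, Retn and Pnpla2. Lpl was not called and its groups overlapped, and Cidec went the other way (-0.16, not called). The summed level of the 4 was 379 to 583 kU in adipocytes and 336 to 337 kU in muscle. Adipoq, Lep, Plin1 and Fabp4, which define fat cells, had no named spot here. The summed level of 5 macrophage markers was 289.6 to 316 kU in adipocytes and 277 to 301 kU in muscle, with 0 called. Some of these spots were dim, such as Itgb2, which averaged 40.0 kU in adipocytes and 41.6 kU in muscle, near the offset. Background was not subtracted, so the sums do not show equal macrophage content. Cdh5 and Eng of endothelium differed by 0.20 and -0.04. Timp2 of fibroblasts differed by 0.0029, the B cell gene Cd79b by 0.40, Cd4 by 0.03, the haemoglobin gene Hbb-b1 by -0.06, and the epithelial genes Cdh1 and Cldn3 by -0.07 and 0.04. Mylk, the smooth muscle kinase, had 54.0, 42.5 and 44.4 kU in adipocytes and 51.0 and 240.2 kU in muscle (-0.90, limma adjusted p = 0.416), so it was high in tibialis replicate 2 alone. Of the slow fibre markers, Tnnc1 had -0.35 ± 0.14 and Myl3 0.02. In whole tissue, fewer cells of a type and less RNA per cell cannot be told apart.

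In culture, the spots called in the contrast of fat with muscle were mostly other ones. Limma called 36 spots (0.625%) between 3T3-F442A adipocytes and C2C12 myotubes, 27 higher (0.469%) and 9 lower (0.156%) in the adipocytes. Of the 22 spots called in tissue, 3 were called here too (13.6% of the tissue calls and 8.33% of the cultured calls). Myl1 and an unnamed spot had the same direction, and Aldoa the opposite one. Myl1 had 55.4, 56.3 and 60.1 kU in 3T3-F442A adipocytes and 347 and 482 kU in myotubes (-2.25 ± 0.21, limma adjusted p = 9.06e-09), close to the low level of tissue adipocytes on the fat side. Lpl had 329, 230.0 and 369 kU in 3T3-F442A adipocytes and 99.01 and 115 kU in myotubes (1.25 ± 0.19, limma adjusted p = 1.91e-04). Retn had 0.06 in culture and Zfp36 -0.10, neither of them called. The test of tissue against culture did not pass for Retn (0.91 ± 0.24, limma adjusted p = 0.144). Nor did it for Lpl (-0.87 ± 0.27, limma adjusted p = 0.283). Of the 22 tissue calls, 8 were called in that test, so a call in tissue alone does not show a difference from culture. The 2 myotube arrays differed in range: their brightest deposited spots were 279 and 1051 kU, their profiles correlated at 0.883, and the count was 154 without replicate 2 and 14 without replicate 1.

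The difference between the tissue and the cultured contrast was tested directly. Limma called 16 spots (0.278%), 4 with a more positive difference in tissue (0.0694%) and 12 with a more negative one (0.208%), and 12 of the 16 carry 1 gene. Atp2a1 differed by -2.50 ± 0.28 (limma adjusted p = 1.22e-06), since it had 69.4, 38.6 and 46.2 kU in 3T3-F442A adipocytes and only 56.3 and 196 kU in myotubes. Pygm differed by -1.80 ± 0.16 (limma adjusted p = 1.12e-08), Cdca7l by -1.56 ± 0.20 (7.15e-06), Pfkm by -1.12 ± 0.20 (0.00335), Unc119b by -1.49 ± 0.27 (0.00349) and Ldb3 by -1.27 ± 0.27 (0.0219). All 6 were called in tissue and not in culture. Myl1 had -0.74 ± 0.29 (limma adjusted p = 0.572) and Eno3 -1.03 ± 0.29 (0.196), so for them the test did not separate tissue from culture.

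Aldoa was called in opposite directions. It had 353, 456 and 511 kU in 3T3-F442A adipocytes and 78.5 and 219 kU in myotubes (1.46 ± 0.34, limma adjusted p = 0.0264), and the contrasts differed by -3.17 ± 0.47 (limma adjusted p = 1.69e-04). Tnnc1, which makes the troponin C of slow and cardiac fibres, had 38.0, 52.8 and 63.8 kU in 3T3-F442A adipocytes and 380.2 and 259 kU in myotubes, while tibialis muscle had 54.6 and 83.3 kU. Its contrasts differed by 1.66 ± 0.20 (limma adjusted p = 4.89e-06). Zfp36 differed by 1.29 ± 0.24 (limma adjusted p = 0.00349). Plin5, a droplet protein of cells that burn fat, had 127, 159 and 162 kU in tissue adipocytes and 134 and 142 kU in tibialis, against 214, 349.5 and 468 kU in 3T3-F442A adipocytes and 104 and 116 kU in myotubes. The difference of the contrasts was -1.23 ± 0.28 (limma adjusted p = 0.0444). Glul, glutamine synthetase, was called in neither contrast alone but in their difference (1.04, limma adjusted p = 0.0317), and C1qtnf3, a secreted protein of the adiponectin family, differed by 0.85 (limma adjusted p = 0.0485). The 3T3-F442A cells were given rosiglitazone and the tissue was not, so the drug and culture cannot be told apart. Which spots are called here moves with the myotube arrays: the count was 58 without replicate 2 and 10 without replicate 1.

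**Figure D4:**
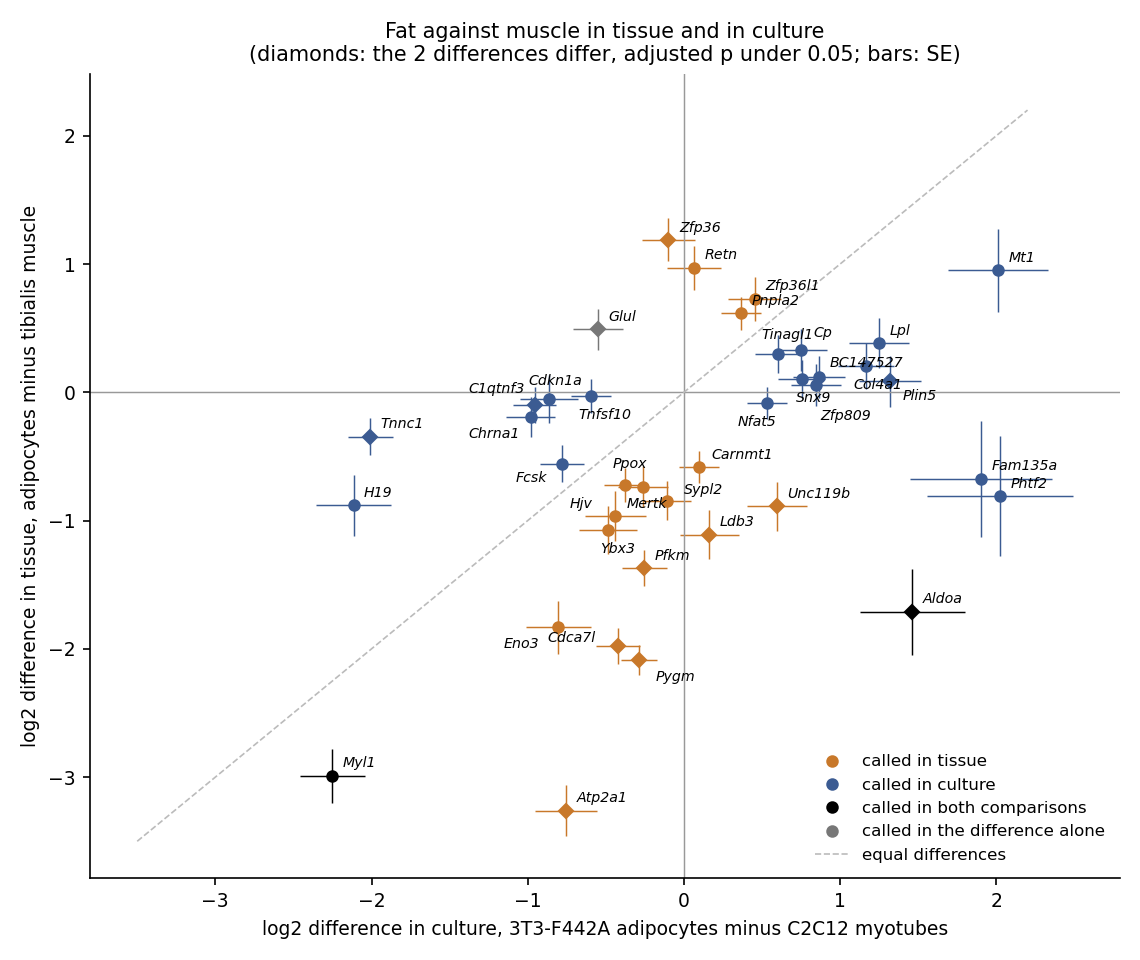
Log2 difference in tissue (adipocytes minus tibialis muscle, vertical) against that in culture (3T3-F442A adipocytes minus C2C12 myotubes, horizontal) for each named gene called in tissue, in culture or in the difference of the contrasts, with SE bars. Diamonds mark genes whose contrasts differ. Myl1 is near the dashed line of equal differences, while Pygm and Atp2a1 are low in the tissue contrast and lie closer to 0 in culture, and Aldoa has opposite signs.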

How the data were processed

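Tripure RNA was DNase-treated, copied into radioactive cDNA and hybridized to Resgen filters, which were read with Imagene, per the labels' protocols. The deposited values are linear spot intensities. The sources used here do not say how background was treated or values were scaled. From the deposited intensities, quantile normalization and log2 of the value plus 36370 (the 10th percentile) followed, and limma 3.58.1 in R 4.3.3 fitted 14 groups at once (25 residual degrees of freedom, two-sided tests). The arrays of 3T3-L1 were averaged first, and the preadipocyte lines 3T3-L1, 3T3-F442A, Ob1774 and Hgfu were members of the same group. The number of arrays limits the precision. In the fit, 3 embryonic stem cell arrays stand apart, with a 99th percentile of 60.0 to 391 times the median, against 3.87 to 17.5 times elsewhere. Leaving out all embryonic stem cell arrays, these 3 and those of the other stem cell group, gave the same tissue count of 22 spots. Other scalings, offsets, filters and fits, and fits without each sample, are described in the closing section.

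Of 5760 spots, 3420 carry 1 gene symbol by platform annotation, updated to GRCm38.p6 RefSeq for 3346; the 98 with several and 2242 with none are unnamed. Named are all called genes (up to 15 per direction) without overlap, called list members, and each list's 3 members of smallest p. A gene's brightest spot represents it in lists. The comparison, lists and naming rule were chosen with earlier results of these data known, so they support nothing independently. Figures used matplotlib 3.10.9 in Python 3.11.15.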

Additional observations from a re-analysis of the deposited data

Results flagged for a closer look

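Because the contrast of fat with muscle was made in tissue and in culture, with no shared sample, spots whose differences were unequal between them were picked out by limma's test of the difference (adjusted p under 0.05). There were 16 such spots. More negative in tissue were Aldoa (-3.17), Atp2a1 (-2.50), Pygm (-1.80), Cdca7l (-1.56), Unc119b (-1.49), Ldb3 (-1.27), Plin5 (-1.23) and Pfkm (-1.12), and the unnamed spots with -2.66, -2.53, -1.89 and -1.17. More positive in tissue were Tnnc1 (1.66), Zfp36 (1.29), Glul (1.04) and C1qtnf3 (0.85). No cause was tested. The groups hold 3, 2, 3 and 2 samples, so no single sample was screened for standing apart from its group.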

How the results depend on the processing

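Main counts were 22 spots in tissue, 36 in culture and 16 for the difference between them. Median scaling gave 11, 11 and 4. No scaling gave 6 (0 higher and 6 lower, with an all-spot median of -0.75), 0 and 0, with limma in each case. Background subtraction gave 12, 20 and 4, and array weights 116 (64 higher, 52 lower), 60 and 78. Only the compared groups gave 13 in tissue (0 higher) and 15 in culture. Without 1 replicate the counts ran from 14 to 29 in tissue, 14 to 154 in culture and 10 to 58 for the difference; a group left with 1 sample borrows its spread from the others. The lowest tissue count came without adipocyte replicate 3 and the highest without tibialis replicate 1, and the highest counts in culture (54 higher, 100 lower) and for the difference came without myotube replicate 2. Replicate numbers 1 and 2 are only shared numbers: same-numbered deviations correlated at 0.20 and 0.113, and with the replicate block 16, 23 and 12 spots were called. The cause of these shifts was not tested. Of 19 called genes 6 kept their call in every setting that tested them (Atp2a1, Myl1, Pygm, Cdca7l, Eno3 and Pfkm), 10 in all 5 fits without 1 sample, and 0 changed sign. Sizes moved as well as calls. Over all settings Atp2a1 ran from -5.01 to -2.30, Myl1 from -4.64 to -2.08, Pygm from -4.07 to -1.27, Cdca7l from -4.91 to -1.13 and Pfkm from -4.65 to -0.70. Retn ran from 0.42 to 2.95, Zfp36 from 0.59 to 4.46, Pnpla2 from 0.05 to 1.45 and Zfp36l1 from 0.18 to 1.57. With background subtraction Cdca7l and Pfkm exceed Myl1 in size.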

Other observations

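Of the 9 spots called lower in 3T3-F442A adipocytes than in myotubes, H19, Chrna1 and Cdkn1a are described here, chosen after their values were seen; none of them was called between the tissues. H19, an imprinted RNA of fetal tissue and muscle, had 45.3, 29.2 and 32.5 kU in 3T3-F442A adipocytes, against 171 and 428 kU in myotubes (-2.11 ± 0.24, limma adjusted p = 7.18e-07), and its tissue difference was -0.88. Chrna1, the acetylcholine receptor subunit that innervated fibres restrict to the synapse, had 50.1, 41.4 and 47.1 kU in 3T3-F442A adipocytes and 96.4 and 163 kU in myotubes (-0.98 ± 0.16, limma adjusted p = 2.89e-04). In tissue it had 68.1, 67.0 and 62.1 kU in adipocytes and 80.3 and 80.0 kU in tibialis. Cdkn1a, the cell cycle inhibitor that rises in fusing myoblasts, had 83.0, 65.5 and 77.9 kU in 3T3-F442A adipocytes and 189 and 146 kU in myotubes (-0.86 ± 0.19, limma adjusted p = 0.0149), against -0.05 in tissue. On the fat side of the cultured contrast Mt1 had 2.01 ± 0.32 (limma adjusted p = 2.89e-04), with 0.95 in tissue, and Col4a1, a basement membrane collagen, 1.16 ± 0.18 (limma adjusted p = 1.79e-04), with 0.20 in tissue. For H19, Chrna1, Cdkn1a, Mt1 and Col4a1 the test of tissue against culture was not passed.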
